A study of Caenorhabditis elegans with 2 samples.

Results

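The aquaporin genes of Caenorhabditis elegans were followed in 2 libraries of RNA 3' ends. The 10 genes were taken by name (aqp-1 to aqp-8, aqp-10 and aqp-11) from 19985 protein-coding genes of the WBcel235 annotation. One library came from input nuclei labelled as mixed tissues, with total RNA as the molecule, and the other from nuclei collected by sorting and labelled as intestine, with nuclear RNA as the molecule. Both were of strain JM149, from liquid cultures of mixed stages at 25 °C, passed through a strainer to favour adults. The labels name no transgene and do not say which nuclei carried the fluorescent mark. The molecule label and the sort cannot be told apart. Each group held 1 library, so there was no replicate check and no test between groups, and the intervals given below cover counting error only.

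Aquaporins are membrane channels that pass water along an osmotic gradient, and the aquaglyceroporins among them also pass glycerol and other small solutes. The worm family is usually divided by sequence into an aquaglyceroporin-like group (aqp-1, aqp-2, aqp-3, aqp-7 and aqp-8), a group like the classical water channels (aqp-4, aqp-5 and aqp-6) and divergent, so-called unorthodox members (aqp-10 and aqp-11). In the worm, AQP-4 is known as a water channel of the intestine and AQP-1 as a glycerol channel there, while aqp-2, aqp-3 and aqp-8 are known from the excretory cell, the tubular cell that regulates the animal's water balance.

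The input library held 9243831 reads, of which 9091542 fell in protein-coding genes, and the sorted library held 4709432 and 4569188. Levels are given as RPM, reads per 1000000 gene-assigned reads. Each read marks 1 transcript end, so no scaling by gene length was applied. A count of 0 allows up to 3 reads, or 0.330 RPM in input and 0.657 RPM in sorted nuclei. Of 19 measured intestinal marker genes, 10 were more than 2-fold higher in sorted nuclei by the criterion below, among them the transcription factor genes elt-2 (3.20, 95% interval 2.47 to 4.17) and elt-7 (4.50, 2.70 to 7.70) and ges-1 (3.26, 3.10 to 3.44), a gut esterase. The yolk protein genes were not called: vit-1 (1.70), vit-5 (1.03), vit-6 (0.759), vit-2 (0.739), vit-4 (0.504, 0.457 to 0.555) and vit-3 (0.497, 0.459 to 0.538). The collagen gene rol-6 (2.29) and the muscle myosin gene unc-54 (2.67) were also higher, each the 1 higher call of its list. In hypodermis and cuticle 4 of 13 genes were lower (col-19 0.215, dpy-7 0.343, dpy-5 0.366 and col-10 0.367), and in body wall muscle 1 of 10 was, tnt-2 (0.452). Over all 10800 measured genes, 13.5% were called higher and 4.11% lower, so 1 higher call in a list of this size is near that share.

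The 10 aquaporin genes together had 1700 input and 1404 sorted reads, 187 and 307 RPM. Their summed level was 1.64 times as high in sorted nuclei (1.53 to 1.76), and 1.33 times (1.21 to 1.46) without aqp-10, which held 34.8% of the family's input and 47.4% of its sorted reads. Of the 10 genes, 8 had at least 20 reads over both libraries and are called measured. The others were aqp-3, with 5 input and 6 sorted reads, and aqp-6, with 2 and 0.

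Calls were made at 2-fold: a gene counted as higher or lower in sorted nuclei where the bound of its 95% interval nearest 1 lay past that size. By this criterion 3 of the 8 measured aquaporin genes were higher in sorted nuclei (aqp-4, aqp-11 and aqp-10) and 0 were lower, against 13.5% of 10800 measured genes called higher and 4.11% called lower. At 4-fold, aqp-4 alone was called, against 4.69% of genes higher and 0.306% lower. The intervals of 5 measured members lay above 1, those of 2 (aqp-7 and aqp-8) below 1, and that of aqp-1 held 1. The median log2 ratio of the 8 was 0.84 (range -1.02 to 3.62), beside 0.04 over all measured genes. With each position counted once per library, the median of the 6 members still measured turned to -0.17 and 0 members were called. In that setting 0.525% of 5709 measured genes were called higher, and their median log2 ratio was -0.03. With this few genes the shares say little about the family as a group, and the members differed widely among themselves. In bulk libraries like these, fewer nuclei of a type and less RNA per nucleus cannot be told apart.

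**Figure D1:**
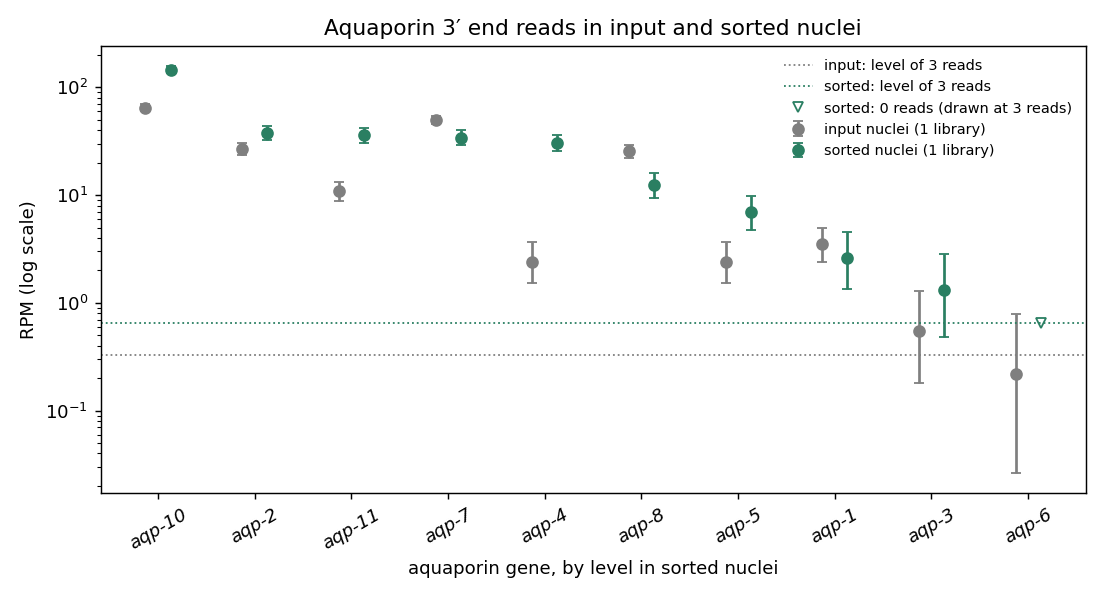
Level of each aquaporin gene in RPM (log scale) in the input (grey) and the sorted library (green), ordered by level in sorted nuclei; bars are exact Poisson 95% intervals and cover counting error only. The intervals of aqp-4 do not overlap (2.42 RPM in input, 30.4 in sorted nuclei), while those of aqp-1 do; the open triangle marks 0 sorted reads of aqp-6, drawn at the level of 3 reads.

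**Figure D2:**
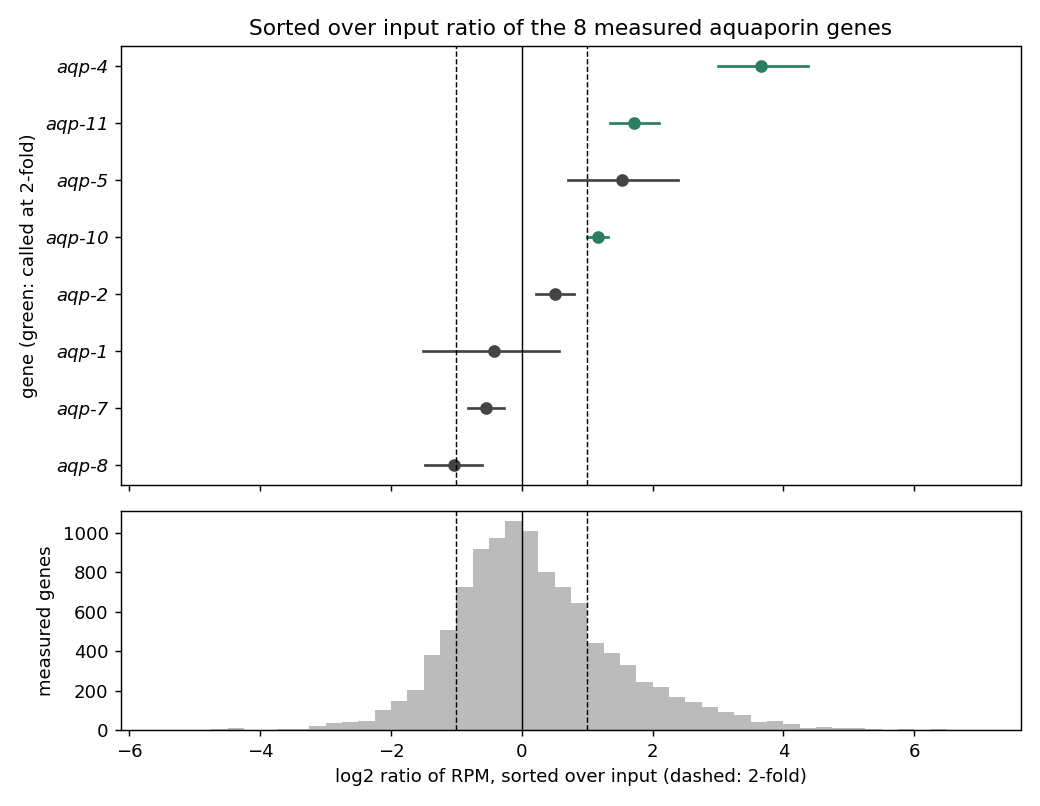
Above, ratio of RPM in sorted over input nuclei (log2 scale) for the 8 measured aquaporin genes with exact binomial 95% intervals, green where the lower bound passed 2-fold; below, the log2 ratios of all 10800 measured genes. The point of aqp-4 lies at 12.6-fold and that of aqp-8 at 0.489, with the bound of aqp-10 at the 2-fold line.

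Of the classical water channels, 2 of 3 were measured and 1 was called higher, against 13.5% of all measured genes. The gene aqp-4, the intestinal water channel (chromosome V, 9737556 to 9739740, forward strand, WBcel235), had 22 reads (2.42 RPM) in input and 139 (30.4 RPM) in sorted nuclei. Its level was 12.6 times as high in sorted nuclei (7.98 to 20.7), which placed its log2 ratio of 3.62 at percentile 98.5 of all measured genes. In input nuclei its level equalled that of aqp-5, and in sorted nuclei its interval overlapped that of aqp-7 above it in the order but not that of aqp-8 below it.

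Almost all aqp-4 reads lay in 1 polyA site of the 3' UTR, spread over 36 to 46 nt upstream of the annotated end with its highest position at 40 nt (12 input and 57 sorted reads), which held 95.5% of input and 95.7% of sorted reads (21 and 133). The gene marc-1 overlaps aqp-4 on the same strand. The reads of marc-1 went the other way, with 38 in input and 9 in sorted nuclei and a ratio of 0.471 (0.200 to 0.992). The aqp-4 ratio at the 3' UTR site alone was 12.6 (7.92 to 21.03). With each position counted once the aqp-4 ratio was 2.56 (0.947 to 7.56), which ended the call.

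The paralog aqp-5 (V, 10491743 to 10493256, forward strand) had the same 22 input reads and 32 sorted reads (7.003 RPM). Its ratio of 2.89 (1.63 to 5.23) lay above 1 but was not called at 2-fold. Its main site, highest at 10 nt beyond the annotated end, held 20 of the input and 30 of the sorted reads. The third gene of the group, aqp-6 (V, 10648446 to 10651997, forward strand), was seen as 2 input reads 3 nt before its annotated end, which is below the limit of 3 reads, and no difference was detectable at this depth.

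Both unorthodox members among the 10 genes were called higher, against 13.5% of all measured genes. Family groups this small, chosen with earlier results known, say little about a group as such. The genes aqp-9 (3.73, 1.48 to 10.2) and aqp-12 (1.82, 0.729 to 4.52), which are outside the 10, were not called. The gene aqp-10 (II, 9768458 to 9769847, reverse strand) was the most abundant aquaporin in both libraries, with 591 reads (65.0 RPM) in input and 665 (146 RPM) in sorted nuclei. Its ratio was 2.24 (2.001 to 2.51), with the lower bound at the threshold. The call ended under TMM scaling (lower bound 1.95), median-of-ratios scaling (1.952) and scaling to all reads (1.97), and it held under 3 of the 12 alternatives that change the counts or their scaling.

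The other unorthodox gene, aqp-11 (III, 13673280 to 13674739, forward strand), had 99 reads (10.9 RPM) in input and 164 (35.9 RPM) in sorted nuclei, a ratio of 3.30 (2.55 to 4.27). It stood below aqp-2, aqp-7 and aqp-8 in input, and beside aqp-2 and aqp-7 in sorted nuclei. Its reads were divided among sites that differed in ratio, described below. The call ended without the 300 nt extension past the annotated end (1.97, 1.3499 to 2.88), which removes its main site, and with each position counted once (1.11).

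Of the aquaglyceroporin-like genes, 4 of 5 were measured and 0 were called. With 13.5% of all measured genes called higher and 4.11% lower, 0 calls among 4 genes is near those shares. The most abundant in input was aqp-7 (X, 3025063 to 3026974, forward strand), with 453 reads (49.8 RPM) there and 156 (34.1 RPM) in sorted nuclei. Its ratio was 0.685 (0.568 to 0.824). A single site in the 3' UTR, 95 nt before the end of the gene and 7 nt past the end of 1 of its transcripts, held 93.6% of input and 97.4% of sorted reads.

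For aqp-8, an excretory cell gene (X, 4702167 to 4704977, reverse strand), 232 reads (25.5 RPM) were found in input and 57 (12.5 RPM) in sorted nuclei. This was the lowest ratio among measured members, 0.489 (0.359 to 0.656), and it was not called at 2-fold. The excretory gene aqp-2 (II, 9259048 to 9261981, reverse strand), whose input level did not differ from that of aqp-8 beyond counting error, had 242 reads (26.6 RPM) in input and 173 (37.9 RPM) in sorted nuclei, a ratio of 1.42 (1.16 to 1.74). These genes, both known from the same cell, lay on opposite sides of 1 with intervals that did not overlap. With each position counted once, aqp-2 turned to 0.494 (0.293 to 0.807) and lay on the same side as aqp-8 (0.688, 0.301 to 1.48). With only reads within 24 nt of an annotated end they lay further apart, and aqp-2 was called at 2.61 (2.05 to 3.33). There aqp-8 stood at 0.221 (0.0686 to 0.553) and was not called. That value rests on 47 input and 5 sorted reads, because the main aqp-8 site lies 89 nt from the nearest annotated end.

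The glycerol channel gene aqp-1 (II, 7235828 to 7238349, reverse strand) was rare, with 32 reads (3.52 RPM) in input and 12 (2.63 RPM) in sorted nuclei. Its ratio of 0.746 (0.350 to 1.49) held 1, so no difference was detectable at this depth. Most of its reads, 22 and 7, lay at a site 3 to 16 nt before the annotated end. It overlaps ctsa-3.1 on the opposite strand, for which 38 reads in input and 44 in sorted nuclei gave a ratio of 2.304 (1.46 to 3.65). The excretory gene aqp-3 (IV, 10961229 to 10966459, reverse strand) was below the read minimum. All 5 of its input reads lay 2 to 5 nt beyond the annotated end, and all 6 sorted reads in an intron, 1600 to 1601 nt upstream of the end.

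The order of levels changed between the libraries. In input, aqp-10 stood above aqp-7, which stood above aqp-2 and aqp-8, the latter pair with overlapping intervals, followed by aqp-11 and then by aqp-1, aqp-4 and aqp-5, which did not differ beyond counting error. In sorted nuclei aqp-10 again stood first, and the intervals of neighbours in the order aqp-2, aqp-11, aqp-7 and aqp-4 overlapped, between 37.9 and 30.4 RPM. The genes nearest in both levels, by distance in log2 RPM over the 2 libraries, were atgp-1 (0.04) and stdh-1 (0.10) for aqp-10, asb-1 (0.02) and pygl-1 (0.03) for aqp-7, and F26F4.12 (0.02) and let-19 (0.07) for aqp-2.

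The second comparison asked whether aquaporin genes used other polyA sites in sorted nuclei, the series being titled for alternative polyadenylation. Reads within 24 nt of the position with the most reads were taken as a site, whose place is given as that position, and sites with 5% or more of a gene's reads in 1 of the libraries were kept. Of 7 members with at least 20 reads in each library, aqp-4 and aqp-7 had 1 site and 5 had several. A site's share was called shifted where input and sorted nuclei lay 20 or more percentage points apart with exact 95% intervals that did not overlap. This held for 2 of these 5 genes, aqp-2 and aqp-11, against 16% of 4008 genes with several sites. It held for aqp-2 alone without the offset between the files and WBcel235, or with reads past a stop codon only. With only sites within 24 nt of an annotated end it held for 0 genes, but that setting could not show these shifts. The other sites of aqp-2 and aqp-11 lie 79 nt or more from such an end and were removed.

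In aqp-2 the distal site, at position 9258976 of the files on chromosome II and 1 nt from the end of an annotated transcript, held 123 of 242 input reads (50.8%, 44.3 to 57.3) and 153 of 173 sorted reads (88.4%, 82.7 to 92.8). At this site alone the level was 2.48 times as high in sorted nuclei (1.94 to 3.16). A more proximal site of the same 3' UTR, 250 nt before the end of the gene at 9259219, went the other way, from 54 input to 8 sorted reads and from 22.3% (17.2 to 28.1) to 4.62% (2.02 to 8.91) of reads. The gene's ratio of 1.42 thus combined sites with ratios of 2.48 and 0.295 (0.121 to 0.623).

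A further part of aqp-2 input reads lay along the body of the gene. Upstream of the stop codon there were 45 reads at 34 positions, with at most 4 reads at any of them, while the sorted library had 0 there. Over all genes, 96.5% of input and 97.1% of sorted gene reads lay past a stop codon, and of 1132 genes with at least 20 input reads upstream of the stop codon, 65 (5.74%) had 0 sorted reads there. With reads past a stop codon only, a restriction chosen after the values were seen, aqp-2 stood at 1.75 (1.42 to 2.15), from 197 and 173 reads, and its distal site still held 62.4% (55.3 to 69.2) of input and 88.4% of sorted reads. What made the scattered reads was not tested.

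In aqp-11 the site 6 nt beyond the annotated end, at 13674625 on III, held 40 input reads (40.4%, 30.7 to 50.7) and 104 sorted reads (63.4%, 55.5 to 70.8), with a ratio of 5.17 (3.56 to 7.65). A site inside the coding sequence, 79 nt before the annotated end, was higher too, at 3.02 (1.88 to 4.91), and kept a similar share, 31.3% and 28.7%. The most upstream site, 1351 nt before the end and near the start of the gene, had 20 reads in input and 0 in sorted nuclei, an upper bound of 0.403 for its ratio. Whether that site belongs to the gene rests on the window's offset of 120 nt between the files and WBcel235. Without any offset, an alternative added for the sites after the values were seen, it fell outside the gene and no site of aqp-11 was called shifted, since the distal site then held 50.6% (39.1 to 62.1) of input and 63.4% of sorted reads. The labels of the other sites rest on the offset too. Without it, the middle site lay in an intron and the distal site in the coding sequence, 114 nt before the annotated end. The shift was also lost with reads past a stop codon only, where the distal site held 40 of 40 input and 104 of 107 sorted reads. The 2-fold call on the gene's level held without the offset, at a ratio of 4.13 (3.14 to 5.47).

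The transcripts of aqp-8 end at different stop codons. Sites past the stop codon of the b transcripts, which lies further upstream in the gene, held 161 input reads (69.4%, 63.0 to 75.3) and 41 sorted reads (71.9%, 58.5 to 83.0), and sites past that of the a, c and d transcripts held the rest. The ratios were 0.507 (0.350 to 0.718) and 0.448 (0.243 to 0.779), so the difference between the ends was not detectable at this depth. Within them, the site at 4703027 on X, 887 nt before the end of the gene, had 122 input and 40 sorted reads and a ratio of 0.652 (0.445 to 0.939). Its neighbour at 4702944 had 39 and 1, a ratio of 0.0510 (0.00126 to 0.301), and the site at 4702219 had 58 and 7, a ratio of 0.240 (0.0925 to 0.527). No share of an aqp-8 site moved by 20 points, the nearest being the first of these, from 52.6% (45.9 to 59.2) to 70.2% (56.6 to 81.6).

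The site shares of aqp-10 were alike in both libraries. Its main site, 8 nt beyond the annotated end at 9768372 on II, held 534 input reads (90.4%, 87.7 to 92.6) and 602 sorted reads (90.5%, 88.04 to 92.6), and a site in the coding sequence 149 nt before the end held 7.45% and 7.67%. Without the offset between the files and WBcel235, the latter site lay in the 3' UTR. Both sites had nearly the same ratio, 2.24 (1.99 to 2.53) and 2.31 (1.51 to 3.53). In aqp-5 the main site held 90.9% (70.8 to 98.9) and 93.8% (79.2 to 99.2).

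**Figure D3:**
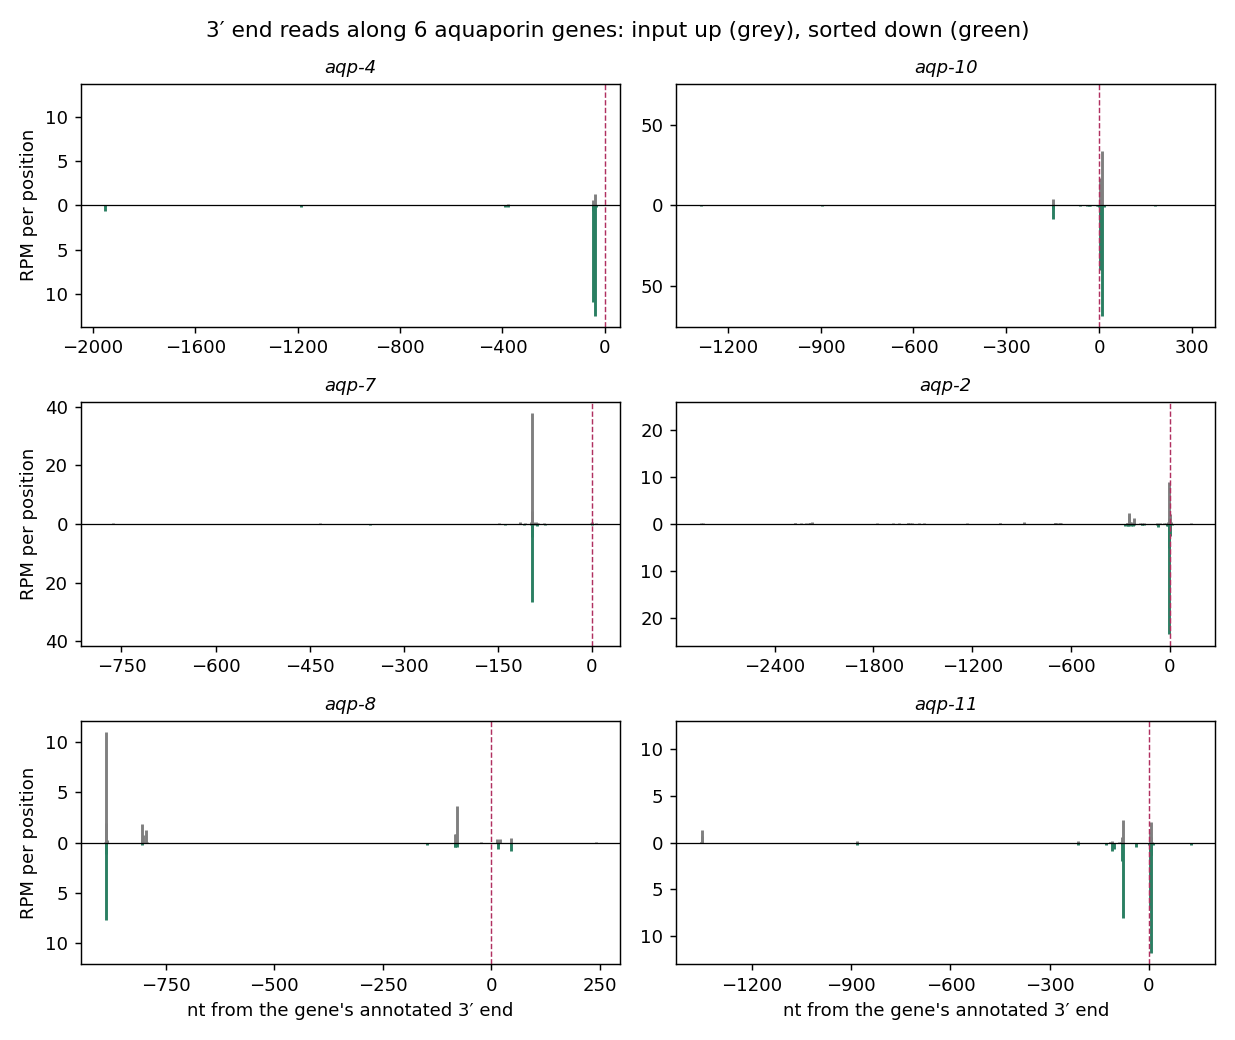
RPM at each position along 6 aquaporin genes, with input reads drawn upward (grey) and sorted reads downward (green), against the distance in nt from the gene's annotated 3' end (dashed line, negative upstream). The 3' UTR reads of aqp-2 250 nt upstream and the aqp-11 reads 1351 nt upstream stand out in input, and nearly all reads of aqp-4 lie in 1 site 36 to 46 nt upstream in both libraries.

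Markers of the tissues in which aquaporins are known were read beside these values. The 12 measured excretory cell genes had a median log2 ratio of 0.30, with 1 called higher, exc-5 (5.10, 3.10 to 8.66), which encodes an exchange factor that keeps the canal's diameter, and 0 lower. Over all measured genes 13.5% were called higher and 4.11% lower, so 1 higher call of 12 is near that share. The summed level of the 12 was 1389 RPM in input and 1512 RPM in sorted nuclei. Most of it came from the innexin gene inx-13, with 1057 and 1107 RPM. The intracellular chloride channel homolog gene exc-4 stood at 3.55 (1.78 to 7.39), from 14 input and 25 sorted reads. The gene exc-9 stood at 0.181 (0.0355 to 0.577), from 33 and 3 reads, and neither was called. The most abundant of the list, inx-13, stood at 1.05. Excretory cell markers thus lay on both sides of 1, as aqp-2 and aqp-8 did, and their part in these ratios was not tested.

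The 19 measured intestinal markers had a median of 1.0998, with 10 higher and 1 lower, erm-1 (0.417), an apical membrane linker also found in the excretory canal. The summed level of the 19 was 17519 RPM in input and 23877 RPM in sorted nuclei. Medians of the remaining marker lists were negative, at -0.91 for hypodermis and cuticle (1 of 13 higher, 4 lower), -0.10 for body wall muscle (1 of 10 higher, 1 lower), -0.53 for pharynx (1 of 7 lower), -1.08 for germ line and oocyte (1 of 13 higher, 6 lower), -0.55 for sperm (3 of 9 lower), -0.41 for neurons (1 of 8 higher) and -1.08 for gonad sheath and spermatheca (0 of 4 called). The single higher calls in these lists are near the 13.5% of all measured genes called higher, beside 4.11% called lower. The neuronal gene egl-3 (0.396) became a lower call under TMM (0.3861) and median-of-ratios scaling (0.3864). Germ line transcripts were still present in sorted nuclei, with a summed 31593 RPM in input and 12158 RPM in sorted nuclei, of which the eggshell gene perm-4 gave 16070 and 4933 RPM. The part of other tissues' RNA in the aquaporin levels was not tested.

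**Figure D4:**
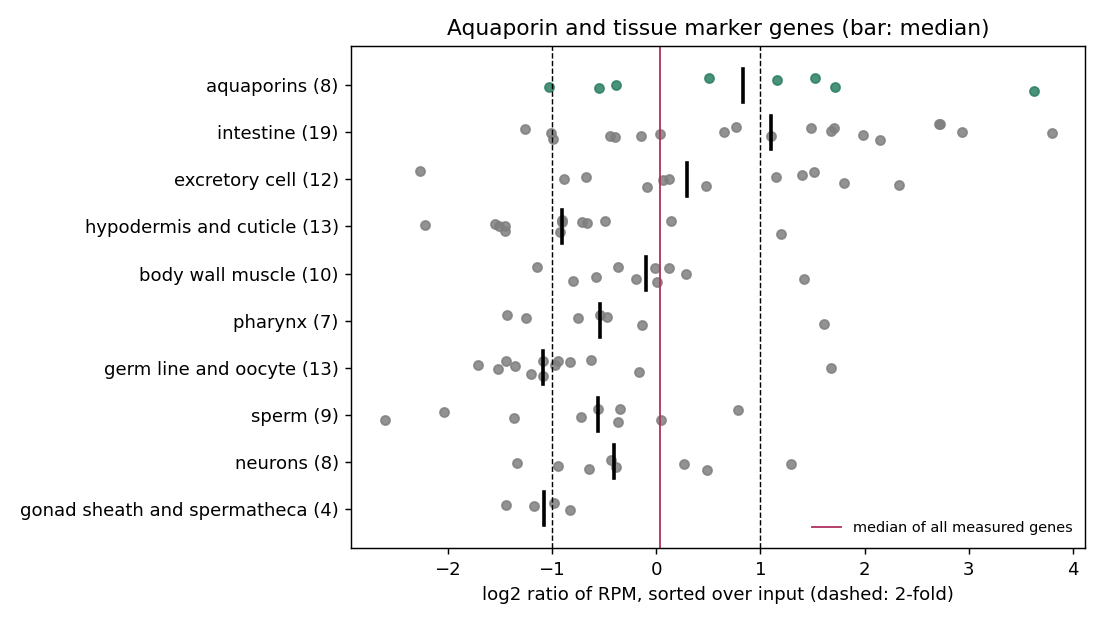
Log2 ratio of RPM in sorted over input nuclei for measured members of the aquaporin family (green) and of tissue marker lists (grey), with the number of genes in brackets, medians as bars and 2-fold as dashed lines. The aquaporin genes run from -1.02 to 3.62, and the intestinal list has the highest median of the marker lists shown, 1.0998.

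Lists of genes for intestinal transport, glycerol, osmotic stress, the excretory canal and insulin signalling gave mixed values. Whether their members act together with aquaporins was not tested. Over all measured genes 13.5% were called higher and 4.11% lower, and with 10 to 14 genes a list, a count of 1 or 2 higher is near that share. Among 13 measured membrane transporters of the intestine, 4 were higher and 1 lower, with a median log2 ratio of 0.47. The peptide transporter gene pept-1 stood at 14.3 (8.31 to 26.5), from 15 input and 108 sorted reads, the sodium-proton exchanger gene nhx-2 at 6.74 (3.93 to 12.1), the zinc transporter gene cdf-2 at 8.09 (6.69 to 9.84) and nkb-1, a subunit gene of the sodium pump, at 2.84 (2.41 to 3.34). Both pept-1 and nhx-2 are also in the intestinal marker list, and both had input levels below 2 RPM, as low as that of aqp-4 (1.65 and 1.98 RPM against 2.42). The pump's catalytic subunit gene eat-6 stood at 1.61 and was not called, and the transporter gene snf-5 was lower at 0.230 (0.101 to 0.459).

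In the list for glycerol synthesis and use, 1 of 10 measured genes was higher, the acyltransferase gene dgat-2 at 3.06 (2.34 to 4.02), and 0 were lower. The glycerol-3-phosphate dehydrogenase genes gpdh-2 and gpdh-3, which lead to glycerol synthesis, stood at 1.03 (0.911 to 1.16) and 1.05 (0.982 to 1.13), and the glycerol kinase gene R11F4.1 at 1.73 (1.598 to 1.86). The osmotically induced gpdh-1 had 9 input reads and 1 sorted read. Of 11 genes of the osmotic stress response, 2 were higher, the inositol transporter genes hmit-1.1 at 5.50 (3.59 to 8.66) and hmit-1.3 at 5.78 (4.58 to 7.36), and 1 was lower, the patched-related gene ptr-23 at 0.209 (0.0738 to 0.485).

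In the excretory canal list 2 of 14 genes were higher, exc-5 and ifc-2, an intermediate filament gene (2.19, 2.05 to 2.35). With TMM or median-of-ratios scaling the lower bound of ifc-2 fell just short of 2-fold (1.997 and 1.998). In the same list 3 were lower, erm-1, let-653 at 0.300 (0.210 to 0.418) and unc-53 at 0.148 (0.0467 to 0.364). Of 10 insulin signalling genes, which act upstream of aqp-1 in the response to glucose, daf-16 was higher at 3.09 (2.46 to 3.89) and daf-18 lower at 0.397 (0.375 to 0.420), while akt-1 stood at 0.757 and hsf-1 at 2.11 (1.85 to 2.41), not called.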

How the data were processed

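The authors deposited whole-number counts of reads per position and strand, not scaled. Per the labels' protocols, RNA was reverse transcribed with a primer of 24 T, amplified as antisense RNA and by 12 PCR cycles. There were no molecular identifiers, so amplified copies can count as separate reads. The intervals therefore cover counting error of reads only, and for counts of RNA molecules they may be too narrow. Per the submitters' processing notes TopHat was used. The build, and what was done with reads of several map places or at genomic A runs, is not given in the sources used here. Positions were compared with WBcel235 3' ends (Ensembl annotation) in 203 windows of 0.5 Mb, and each window's commonest offset (-7 to 120 nt, or 4611 to 4612 nt in 3 windows) was added. In 2 windows under 10 positions shared an offset and these were left out. In the windows used, pairs of a position and an annotated end within 3 nt of the offset numbered a median of 42.0% of the positions with at least 10 reads. A position near several ends counts more than once, so this can exceed the share of positions. Windows of the measured aquaporin genes gave 39.9% to 55.7%. Site positions printed are those of the files. Reads were summed over each gene's span plus 300 nt on its strand, a position reached by several genes going to 1 of them. Ratios carry exact binomial 95% intervals (scipy 1.17.1), levels exact Poisson and shares exact Clopper-Pearson intervals. Log2 ratios have 0.5 reads added. Scaling alternatives used edgeR 4.0.16 and DESeq2 1.42.0, whose tests need replicates and were not run. The calculations were tested on simulated data. The simulated counts were drawn independently, so this did not test the intervals against amplified copies or differences between replicates. Genes were named from the 10 aquaporins, in each list up to 4 members with the most reads and called members, 4 check genes, the 2 genes nearest in level to each of 3 aquaporins, and neighbours within 300 nt. The list members exc-4, exc-9, gpdh-1, vit-1, vit-2, vit-3 and vit-4 lie outside this rule and were chosen after their values were seen. The members, lists and family groups were chosen with earlier results of these data known. No sequence table was used here.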

Additional observations from a re-analysis of the deposited data

How the results depend on the processing

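Counting each position once per library takes away differences in height between positions, and it left 6 aquaporin genes measured. Their median log2 ratio turned to -0.17, aqp-2 turned to -0.9963 and 0 aquaporin genes were called higher. Of all 5709 genes measured in that setting, 30 were called higher and 0 lower. Without the downstream extension 1 aquaporin gene was called higher, since the main sites of aqp-10 and aqp-11 lie beyond their annotated ends. At 4-fold 1 aquaporin gene was called higher, and 507 genes were higher and 33 lower overall. A minimum of 100 reads left 881 genes called higher. With only reads within 24 nt of an annotated 3' end, aqp-4 had 0 reads and no ratio, because its site lies 40 nt upstream. In that setting aqp-2 was called at a ratio of 2.61. There 0 aquaporin genes had a shifted site, but aqp-2 and aqp-11 kept only their distal sites, so no shift could be called in either. The gene aqp-8, left with 47 input and 5 sorted reads, stood at 0.221 and was not called. With only positions past a stop codon, chosen after seeing the data, 1 gene had a shifted site, since aqp-11 then had a single one, and without the offset, also chosen after seeing the data, only aqp-2 had a shifted site. Other site widths and shares left the count at 2. Of 100 further values of single genes, 88 stayed within their intervals, 11 moved beyond them and 1 turned. Among the 12 settings that change the counts or their scaling, the aqp-4 call held under 10 of the 11 settings that could give it, the exception being each position counted once, the aqp-11 call under 10 of 12 and the aqp-10 call under 3 of 12. TMM and median-of-ratios scaling left the median of all genes at 0.0052 and 0.0064. No paired analysis was possible because each group has 1 library, and for the same reason no replicate could be left out. Depth limits aqp-1, aqp-3 and aqp-6 most.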

Other observations

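Opposite-strand reads over aqp-1, which ctsa-3.1 overlaps, numbered 35 in input and 27 in sorted nuclei, more than the 32 and 12 reads of aqp-1 itself. They numbered 18 and 11 over aqp-2, and at most 6 in either library over each of the other 8 genes. The genes aqp-9 and aqp-12, which are not among the 10, gave ratios of 3.73 (1.48 to 10.2) from 8 and 15 reads and 1.82 (0.729 to 4.52) from 12 and 11 reads, and neither was called. The potassium channel gene shk-1, which ends 173 nt from aqp-10 on the other strand, gave 51 reads in input and 9 in sorted nuclei, with a ratio of 0.351 (0.152 to 0.720), while the gene dyf-2 beside aqp-11 had 56 and 51 reads, a ratio of 1.81 (1.22 to 2.70).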
